A study of Mus musculus with 12 samples.

Results

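Plasminogen activation was examined through 6 genes: the activators Plat and Plau, the urokinase receptor Plaur, and the serpins Serpine2, Serpinf1 and Serpina3n. They were taken by name, as the genes whose array probesets carry exactly 1 gene symbol and that symbol is one of these names. All 6 were found, among 20352 genes measured. The tissue came from 12 hearts of C57BL/6J mice labelled as 12 weeks of age, sampled 2 weeks after surgery. In 6 infarcted hearts the border zone of the infarct was taken, and in 6 sham-operated hearts the matching site. Each RNA was hybridised to a one-colour array, and values are the deposited probeset signals read as log2, with 1 unit being a doubling of signal. A gene's value on an array is the median over its probesets. The number of arrays, 6 in each group, limits the precision of every value.

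Tissue-type plasminogen activator (Plat) and urokinase (Plau) are serine proteases that cut plasminogen, a protein made mainly by the liver, into plasmin. Plasmin dissolves fibrin, degrades matrix proteins and activates some latent enzymes and growth factors. The receptor encoded by Plaur holds urokinase at the cell surface. Serpins are a protein family in which many members inhibit serine proteases by a trap that destroys the inhibitor, while others have lost that function. Mice that lack urokinase are known to heal infarcts poorly.

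The 3 serpin genes and Plat were higher in infarcted border zone, and Plau and Plaur did not pass the test. Serpina3n was 5.31-fold higher (95% interval 4.16 to 6.78), Serpinf1 3.12-fold (2.62 to 3.71), Serpine2 2.07-fold (1.76 to 2.44) and Plat 1.48-fold (1.29 to 1.70). Plau was 1.15-fold (0.981 to 1.35) and Plaur 1.18-fold (0.996 to 1.40) the sham signal. Members thus counted 4 higher and 0 lower (limma, adjusted p under 0.05 over all genes), beside 20.3% of all genes called in either direction, 10.1% higher and 10.2% lower. The split of all genes depends on scaling. It was 2050 higher and 2074 lower with the deposited values, and 1721 higher and 3081 lower with each array centred on its median, which moved the median change of all genes from -0.04 to -0.09. The counts of the members were the same under both scalings. In whole tissue, a change in the number of cells of a type and a change in RNA per cell cannot be told apart.

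**Figure D1:**
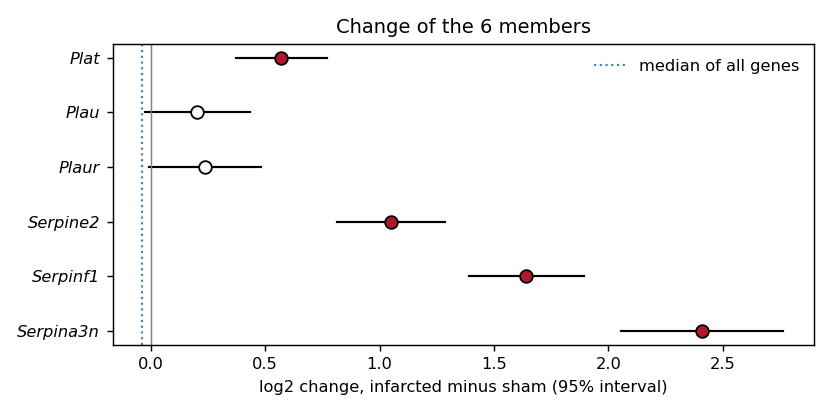
Log2 change (infarcted minus sham) of each of the 6 genes, with its 95% interval from limma. Filled points passed an adjusted p under 0.05 over all genes, and the dotted line is the median of all genes at -0.04. The intervals of Plau and Plaur hold 0, and Serpina3n has the change with the highest value, 2.41.

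The arrays were alike in overall brightness, with medians over all probesets from 7.045 to 7.058 in infarcted hearts and from 6.997 to 7.026 in sham hearts, and correlations between arrays from 0.956 to 0.979. Defining markers of heart muscle were bright in both groups, with a mean over 7 cardiomyocyte markers from 12.9 to 13.03 in infarcted arrays and from 13.03 to 13.12 in sham arrays. Markers of atrial muscle were uneven among infarcted hearts. Their mean was 10.16, 9.19 and 8.86 in infarcted replicates 4, 5 and 6, against 7.75 to 7.79 in infarcted replicates 1 to 3 and 7.28 to 8.09 in sham arrays. These means include Nppa, which was higher in every infarcted array (13.4 to 13.5) than in sham arrays (11.1 to 11.7). Infarcted and sham atrial means are thus not a like measure of atrial muscle. Adipocyte markers averaged 7.16 in infarcted replicate 5, against 4.94 to 5.63 in the other infarcted arrays and 4.94 to 5.38 in sham arrays. Without infarcted replicates 4, 5 and 6 the members still counted 4 higher and 0 lower, with log2 changes of 0.61 for Plat, 1.06 for Serpine2, 1.59 for Serpinf1 and 2.25 for Serpina3n.

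Of the 2 activators, Plat rose. Its lowest, median and highest signals were 7.85, 8.08 and 8.13 in infarcted hearts, against 7.30, 7.42 and 7.79 in sham hearts. The groups did not overlap, as in 5.97% of all genes with infarcted arrays on top and 5.29% with infarcted arrays below. The means were 8.05 ± 0.10 in infarcted hearts and 7.48 ± 0.20 in sham hearts (SD, n = 6 each), a change of 0.57 ± 0.09 (SE, adjusted p = 0.000568). The change ranked 884 among all genes, and the infarcted arrays were the tighter group. Without infarcted replicate 4, the lowest of its group, Plat stayed past the threshold, as it did in each of the 21 alternative settings run (changes from 0.52 to 0.63).

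Urokinase, the activator bound by the receptor, did not pass the test. Plau had lowest, median and highest signals of 5.78, 6.07 and 6.43 in infarcted hearts, against 5.62, 5.85 and 6.13 in sham hearts, so the groups overlapped. Infarcted replicate 3 was the highest of all 12 arrays and infarcted replicate 2 lay below the sham median. The means were 6.07 ± 0.21 in infarcted hearts and 5.87 ± 0.17 in sham hearts (SD, n = 6 each). The change of 0.20 ± 0.11 (SE) had an adjusted p of 0.215 and a 95% interval from -0.03 to 0.43. That interval does not show that Plau was level. Without infarcted replicate 3 the change was 0.13 (adjusted p = 0.396), and over the 21 alternatives it ran from 0.13 to 0.27.

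A direct comparison put the change of Plau below that of Plat. Within each array, Plau minus Plat averaged -1.98 ± 0.24 in infarcted hearts and -1.61 ± 0.21 in sham hearts (SD, n = 6 each). The groups differed by -0.37, with a 95% interval from -0.66 to -0.07 by a pooled-variance t formula. An exact permutation test over all splits of the 12 arrays into 6 and 6 gave a two-sided p = 0.0238, where the smallest possible is 0.00217. That call rested in part on 1 array: without infarcted replicate 2 the difference was -0.29 (exact permutation p = 0.052).

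The urokinase receptor Plaur, a membrane-anchored protein of the Ly6 and uPAR domain family, also stayed short of the threshold. Its lowest, median and highest signals were 6.01, 6.23 and 6.62 in infarcted hearts, against 5.76, 6.03 and 6.4 in sham hearts. The groups overlapped: sham replicate 3, at 6.4, exceeded 5 of the infarcted arrays, and infarcted replicate 5, at 6.01, lay below sham replicates 2, 3, 4 and 5. The means were 6.27 ± 0.22 in infarcted hearts and 6.03 ± 0.21 in sham hearts (SD, n = 6 each), a change of 0.24 ± 0.11 (SE, adjusted p = 0.168). With dim probesets left out the change was 0.27 and passed (adjusted p = 0.0458). Over the 21 alternatives the adjusted p of Plaur ran from 0.0458 to 0.311.

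**Figure D2:**
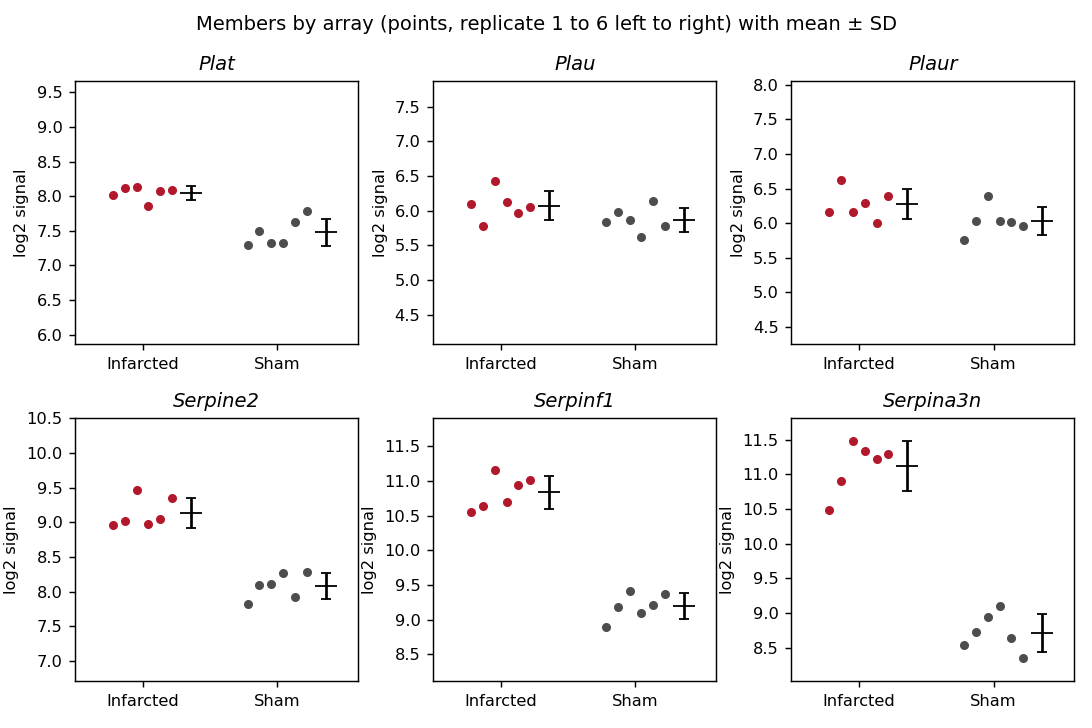
Log2 signal of each gene on the 12 arrays, infarcted left and sham right in each panel, with points in order of replicate number and mean ± SD beside them (n = 6 each). All panels span the same number of log2 units. The 3 serpins and Plat have no overlap between groups, and Plau and Plaur overlap.

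Serpine2 encodes protease nexin-1, a tissue inhibitor of thrombin, urokinase, tissue-type activator and plasmin. It was the serpin of this set that acts on the activators themselves, and it rose. Its lowest, median and highest signals were 8.96, 9.03 and 9.46 in infarcted hearts, against 7.82, 8.10 and 8.29 in sham hearts, with a clear gap between the groups. The means were 9.13 ± 0.21 in infarcted hearts and 8.08 ± 0.19 in sham hearts (SD, n = 6 each), and the change was 1.05 ± 0.11 (SE, adjusted p = 1.25e-05). The median change of its 11 probesets was larger, 1.25, and the mean over probesets gave 1.13. Numbered in order of ID, probeset 11 lay near the gene's median in infarcted hearts (9.14), and probeset 10 in sham hearts (8.11). The gene's change thus sets unlike probesets against each other and may understate the rise. Changes of at least 1 that passed the test were found in 1.28% of all genes.

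Serpinf1 encodes pigment epithelium-derived factor, a secreted serpin with no known protease-inhibiting activity, known as an inhibitor of blood vessel growth. It had lowest, median and highest signals of 10.55, 10.82 and 11.16 in infarcted hearts, against 8.89, 9.20 and 9.42 in sham hearts. Every infarcted array lay more than 1 log2 unit above the brightest sham array. The means were 10.84 ± 0.24 in infarcted hearts and 9.19 ± 0.19 in sham hearts (SD, n = 6 each), and the change was 1.64 ± 0.12 (SE, adjusted p = 3.44e-07), which ranked 80 among all genes.

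Serpina3n, a secreted mouse serpin related to human alpha-1-antichymotrypsin, inhibits proteases of immune granules such as granzyme B and is induced in acute phase responses. It changed more than the other 5 genes. Its lowest, median and highest signals were 10.48, 11.26 and 11.49 in infarcted hearts, against 8.35, 8.68 and 9.10 in sham hearts. The infarcted minimum, in replicate 1, was below the other infarcted arrays (10.91 and above) but still far over the sham maximum. The means were 11.12 ± 0.37 in infarcted hearts and 8.71 ± 0.27 in sham hearts (SD, n = 6 each), and the change of 2.41 ± 0.16 (SE, adjusted p = 2.34e-07) ranked 22 among all genes.

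In order of change, neighbours among the upper 4 genes were separated, and neighbours from Plat down were not. Plat and Plau are not neighbours in this order, and their direct comparison is given above. Serpina3n exceeded Serpinf1 by 0.77 (95% interval 0.40 to 1.13), Serpinf1 exceeded Serpine2 by 0.59 (0.41 to 0.78), and Serpine2 exceeded Plat by 0.48 (0.21 to 0.75), each as a difference of log2 changes measured within arrays. Plat exceeded Plaur by 0.33, with an interval from -0.01 to 0.68 that holds 0, and Plaur exceeded Plau by 0.03 (-0.38 to 0.45). These 5 intervals, by the same pooled-variance t formula, describe neighbours picked by rank and were not adjusted for that. The gaps of Serpine2 rest on its gene change of 1.05, not on its median probeset change of 1.25.

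Among infarcted hearts, replicate 3 had the highest signal for 5 of the 6 genes, Plaur being the exception, and replicate 1 had the lowest signal for the 3 serpins. Replicate 3 also had the highest mean over 7 fibroblast markers, 10.66, against 10.25 to 10.44 in the other infarcted arrays, and the highest mean over 6 activated fibroblast markers, 9.86, against 9.46 to 9.78. In sham hearts, replicate 1 was lowest for 4 of the 6 genes and had the lowest fibroblast marker mean (9.07, against 9.13 to 9.33 in the other sham arrays). The orders did not match throughout. Infarcted replicate 4, not 1, had the lowest infarcted fibroblast mean, 10.25, and sham replicate 6 had the highest sham fibroblast mean, 9.33, and the lowest Serpina3n signal, 8.35.

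Marker levels of several cell types differed between the groups together with the serpins and Plat. The fibroblast mean ran from 10.25 to 10.66 in infarcted arrays and from 9.07 to 9.33 in sham arrays, and all 7 markers rose, among them the receptor gene Pdgfra (0.57). The activated fibroblast mean ran from 9.46 to 9.86 in infarcted arrays and from 7.13 to 7.44 in sham arrays, and 5 of 6 rose, Postn by 3.08. Of 8 macrophage markers 6 rose, with Csf1r at 0.51 and a mean from 8.2 to 8.48 in infarcted arrays and from 7.67 to 8.0 in sham arrays. The others did not pass: Cd163 differed by -0.41 (adjusted p = 0.0987) and Fcgr1 by 0.26 (adjusted p = 0.388). Of 6 smooth muscle and pericyte markers 4 rose, but Myh11, the smooth muscle myosin gene, differed by -0.14 (adjusted p = 0.268) and Rgs5 by 0.02 (adjusted p = 0.888). Their mean ran from 9.05 to 9.34 in infarcted arrays and from 8.53 to 8.93 in sham arrays. None of 6 endothelial markers and none of 7 cardiomyocyte markers passed. None of 7 neutrophil markers passed either, and 6 of the 7 lay below the 30th percentile of probeset signal (5.58) in both groups. The part of these cell types in the changes of the 6 genes was not tested.

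**Figure D3:**
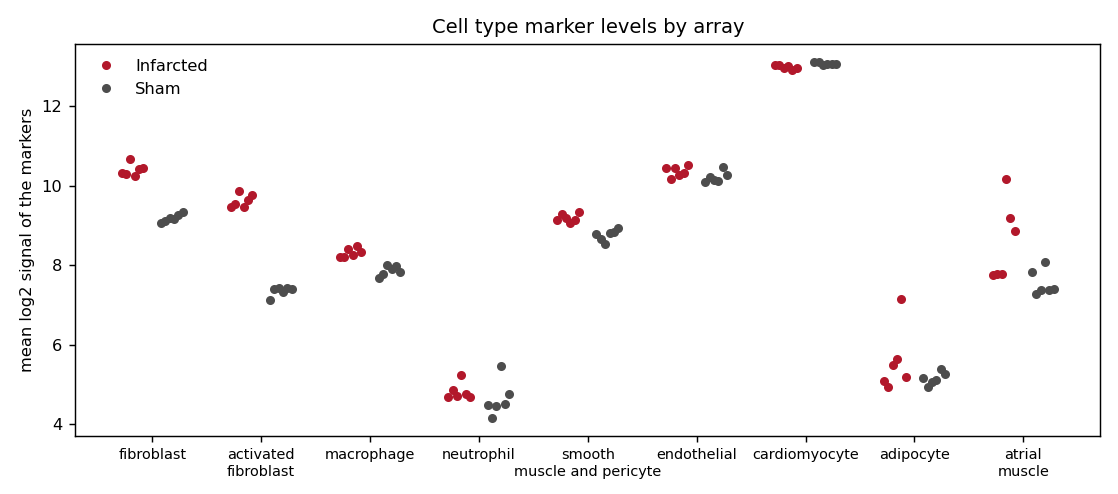
Mean log2 signal over the markers of 9 cell types on each array, infarcted in red left of sham in grey, with 1 point per array. Fibroblast, activated fibroblast, macrophage and smooth muscle means do not overlap between groups, and the atrial mean spreads up to 10.16 in infarcted arrays.

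The remaining marker lists showed little that followed the groups. Of 5 adipocyte markers and 4 atrial markers, only Nppa, which ventricles also switch on under load, passed (2.04). Of 5 epicardial and mesothelial markers Tbx18 rose (0.47), with a list mean from 6.08 to 7.16 in infarcted arrays and from 5.93 to 6.56 in sham arrays. Of 4 measured Schwann and glial markers Gfra3 fell (-0.36), with a list mean from 5.94 to 6.14 in infarcted arrays and from 6.01 to 6.24 in sham arrays.

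Each gene was measured by several probesets, which allows a look at whether its change held along the gene. All 4 probesets of Serpina3n rose, by 2.25 to 2.65. Of the 14 probesets of Plat 10 rose, and all 14 had a positive change (0.22 to 1.02). Serpine2 had 9 of 11 higher and Serpinf1 7 of 9, while Plaur had 1 of 8 and Plau 0 of 11. Over all probesets 6.39% were called higher and 4.3% lower (limma, adjusted p under 0.05 over all probesets). Plau had 8 of 11 positive changes, up to 0.88 on a probeset that did not pass (adjusted p = 0.131).

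Serpinf1 and Serpine2 changed unequally along their probesets. In Serpinf1, probesets 2 to 7 in order of ID changed by 1.56 to 1.66, probeset 8 by 0.99, and probesets 1 and 9 by -0.07 and 0.07. Probeset 1 lay below the 30th percentile in signal, at 5.04 in infarcted hearts and 5.12 in sham hearts, and probeset 9 just above it, at 5.77 in infarcted hearts and 5.71 in sham hearts. Probeset 8 was bright, at 9.78 in infarcted hearts and 8.79 in sham hearts, yet changed by 0.65 less than the gene's median (adjusted p = 0.00208). In Serpine2, 9 probesets changed by 1.19 to 1.54, while probeset 3 changed by 0.47 and the bright probeset 11 by 0.32. The change of probeset 11 was 0.73 less than that of the gene's median (adjusted p = 0.00729). In infarcted hearts that median, 9.13, lay near probeset 11 itself, 9.14, so 0.73 is not its gap to the 9 probesets.

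The test of unequal change over the whole gene passed for Serpinf1 (diffSplice, adjusted p = 7.68e-13) and Serpine2 (adjusted p = 4.17e-05), and not for Plat (adjusted p = 0.227), Plau (0.589), Plaur (0.887) or Serpina3n (0.846). It passed for 8.43% of the genes tested. It pools the spread of a gene's probesets and was too liberal on simulated data whose probesets differed in spread, so the fit of each probeset minus its gene's median on the same array, chosen after that was seen, is given beside it. That fit called 3 probesets of Serpinf1 (1, 8 and 9), 1 of Serpine2 (11) and none of the other members, beside 0.723% of all probesets in it. The position of the probesets on the transcripts was not used here, so exons and transcript ends were not compared.

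**Figure D4:**
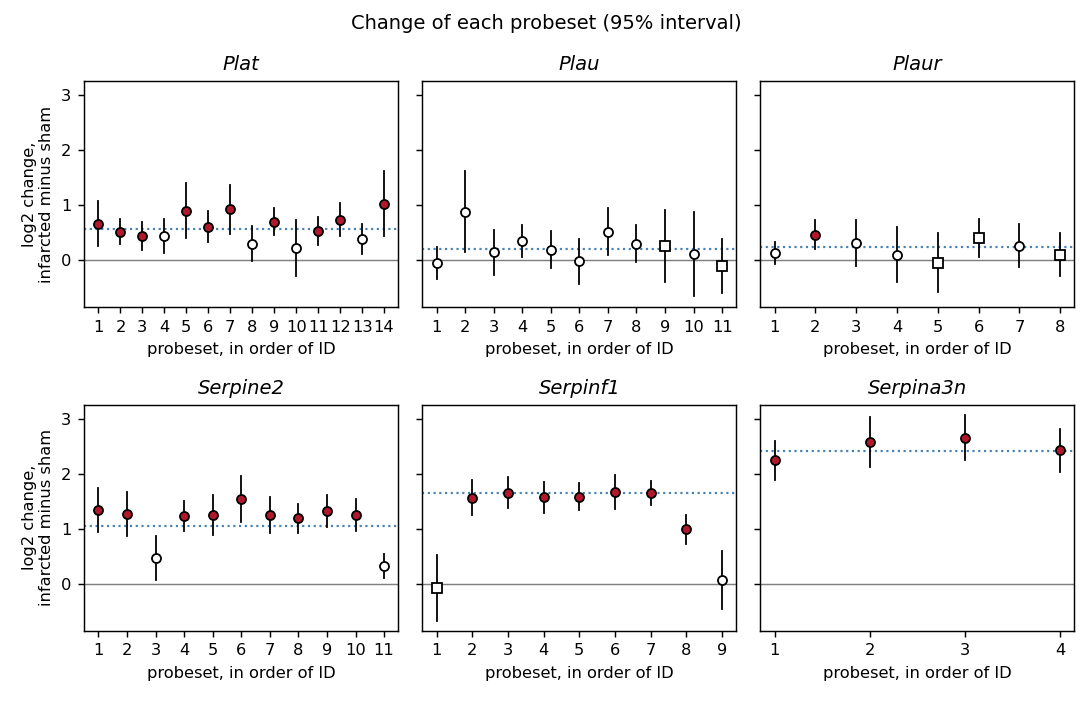
Log2 change (infarcted minus sham) of each probeset with its 95% interval, in order of probeset ID. Filled symbols passed over all probesets, squares lie below the 30th percentile of signal, and the dotted line is the change of the gene. Serpinf1 drops at probesets 1, 8 and 9 and Serpine2 at 3 and 11, while Serpina3n is even.

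Probesets of Serpina3n could bind RNA of its close relatives in the Serpina3 cluster, although the platform annotation gives none of its 4 probesets to a second gene. Of 8 other Serpina3 genes 2 rose and none fell, with changes from -0.12 to 0.85 (median 0.43, against -0.04 for all genes). Serpina3f rose by 0.85, to 6.04 ± 0.20 in infarcted hearts, against 5.19 ± 0.18 in sham hearts (SD, n = 6 each). The change of Serpina3f was 0.44 with the mean over probesets and 0.42 with dim probesets left out (adjusted p = 0.0246). Serpina3i, measured by 1 probeset, rose by 0.51 (adjusted p = 0.0310), a call that ended when infarcted replicate 4 or 6 or sham replicate 2, 3 or 5 was left out (adjusted p up to 0.0671). It also ended without infarcted replicates 4 and 5 (adjusted p = 0.0781) and without 4, 5 and 6 (change 0.34, adjusted p = 0.234). Serpina3k, also measured by 1 probeset, differed by -0.12 (adjusted p = 0.422), at 8.52 ± 0.23 in infarcted hearts and 8.64 ± 0.06 in sham hearts (SD, n = 6 each). None of the 8 came near the change of 2.41 of Serpina3n, but how far the relatives share its signal was not tested.

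The promoters of 4 of the 6 genes were in a RefSeq table (build GRCm38.p6), each from 250 bases before to 50 bases after the gene's start, on the gene's strand. They are shown because Serpine2, Serpinf1 and Serpina3n rose together, with Plaur, which did not pass, beside them. Capitals mark matches on either strand to the letters TATAAA of the TATA box, GGGCGG of the GC box, TGANTCA of AP-1 sites and TTCNNNGAA of STAT sites, N being any base. Matches may overlap one another.
Serpine2 (chr1:79858616-79858915, minus strand): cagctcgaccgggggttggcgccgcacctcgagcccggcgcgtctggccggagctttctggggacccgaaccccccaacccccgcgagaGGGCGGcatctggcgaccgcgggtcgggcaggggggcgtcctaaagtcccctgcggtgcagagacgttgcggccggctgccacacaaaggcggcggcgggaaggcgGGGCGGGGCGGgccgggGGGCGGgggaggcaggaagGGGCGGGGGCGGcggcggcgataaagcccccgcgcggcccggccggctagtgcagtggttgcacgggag
Serpinf1 (chr11:75422574-75422873, minus strand): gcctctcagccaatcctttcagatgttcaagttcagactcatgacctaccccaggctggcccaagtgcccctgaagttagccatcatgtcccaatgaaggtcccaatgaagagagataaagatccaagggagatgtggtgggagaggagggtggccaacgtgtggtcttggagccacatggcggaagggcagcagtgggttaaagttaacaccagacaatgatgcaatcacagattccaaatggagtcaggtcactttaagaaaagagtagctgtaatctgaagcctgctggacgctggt
Serpina3n (chr12:104406458-104406757, plus strand): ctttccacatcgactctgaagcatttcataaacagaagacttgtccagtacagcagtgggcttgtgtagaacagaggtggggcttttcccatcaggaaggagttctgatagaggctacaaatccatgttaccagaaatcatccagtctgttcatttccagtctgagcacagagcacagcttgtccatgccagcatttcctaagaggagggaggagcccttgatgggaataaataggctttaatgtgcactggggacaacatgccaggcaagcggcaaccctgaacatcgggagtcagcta
Plaur (chr7:24462233-24462532, plus strand): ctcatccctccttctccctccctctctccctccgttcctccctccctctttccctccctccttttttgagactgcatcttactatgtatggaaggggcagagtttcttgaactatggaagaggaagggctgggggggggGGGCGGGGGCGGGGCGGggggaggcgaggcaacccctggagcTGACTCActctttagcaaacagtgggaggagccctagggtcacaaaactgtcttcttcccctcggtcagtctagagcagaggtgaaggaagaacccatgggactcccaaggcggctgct

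The 3 serpins that rose share none of these letters in all of their windows. Serpine2 held 6 matches to GGGCGG, and Plaur held 3 to GGGCGG and 1 to TGANTCA. Serpinf1 and Serpina3n held none of the 4 motifs, which says only that these letters are not in these windows. Of 32851 promoters of the same length, 35.7% held GGGCGG, 13.6% TATAAA, 7.81% TGANTCA and 8.3% TTCNNNGAA.

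Other genes of the system were read from lists written with earlier results of these data known, and their counts are descriptions beside the 10.1% of all genes called higher and 10.2% called lower (median change of all genes -0.04). Of 12 genes of plasminogen, its inhibitors and linked activators 1 rose and none fell (median 0.01), and 8 of them lay below the 30th percentile of signal in both groups. The one was Hgf, a growth factor that serine proteases cut into its active form, at 5.58 ± 0.29 in infarcted hearts and 4.75 ± 0.13 in sham hearts (SD, n = 6 each, change 0.83, adjusted p = 0.000247). Plg, the plasminogen gene, was dim, at 4.98 ± 0.43 in infarcted hearts and 5.03 ± 0.16 in sham hearts (adjusted p = 0.864).

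Receptors and clearance proteins for plasminogen and urokinase were the list with the most calls, 11 of 18 higher and 1 lower (median 0.41). Many of the higher genes encode integrin chains: Itga5, Itgam, Itgb5, Itgav, Itgb3 and Itgb1. The 6 not called were Plgrkt (0.15, adjusted p = 0.187), Itga3, Igf2r, Lrpap1, Vtn and Lrp2. Anxa2, a cell-surface binder of plasminogen and Plat, rose by 1.2 (adjusted p = 1.88e-07). Mrc2, which takes up collagen and associates with the urokinase receptor, rose by 1.30 (adjusted p = 8.26e-07). Lrp1, which clears complexes of activators with serpins, rose by 1.0 (adjusted p = 6.9e-06), and Itga5, the fibronectin receptor chain, by 0.87. Vldlr, a related clearance receptor, fell by 0.41, at 10.80 ± 0.15 in infarcted hearts and 11.20 ± 0.07 in sham hearts (SD, n = 6 each).

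**Figure D5:**
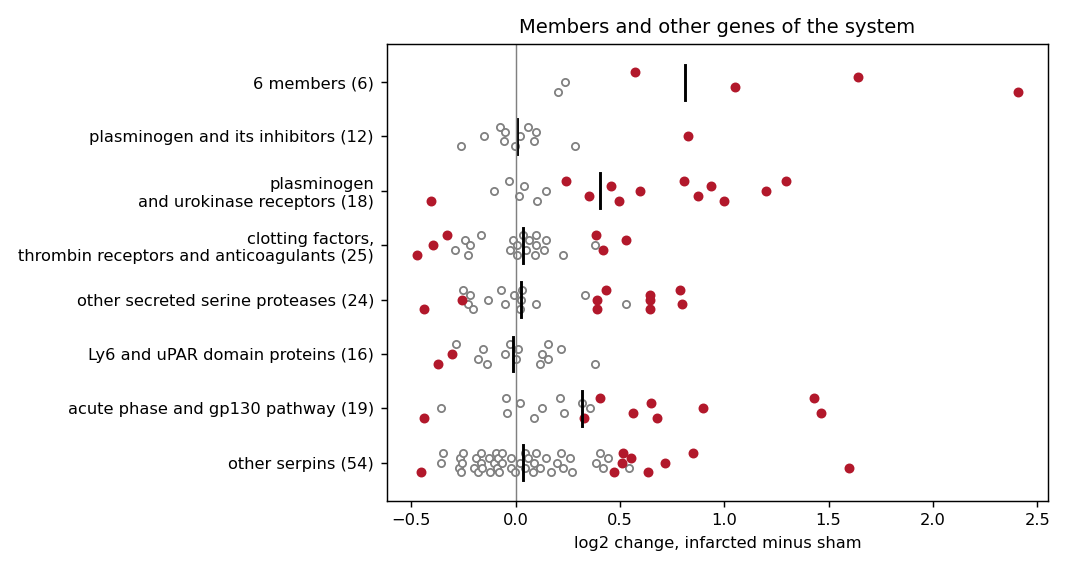
Log2 change (infarcted minus sham) of each measured gene in the 6 members and 7 lists, with the number of genes in brackets. Red points passed over all genes, open points did not, and the bar is the list's median. Receptors have 11 of 18 genes to the right that passed, and most serpins outside the 6 members lie near 0.

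Of 25 clotting factors, thrombin receptors and anticoagulants 3 rose and 3 fell (median 0.03), which is near the shares over all genes, and the higher count ran from 1 to 5 over the alternatives. Pros1, an anticoagulant cofactor, rose by 0.53, while F3, tissue factor, fell by 0.47 and its inhibitor Tfpi by 0.40. Of 24 other secreted serine proteases 8 rose and 2 fell (median 0.03). St14 and Prss23 each rose by 0.65 (St14 by 0.31 with dim probesets left out) and Htra4 by 0.80, and Corin, the protease that processes natriuretic peptides, fell by 0.44. Of 16 Ly6 and uPAR domain proteins, the family of Plaur, none rose and 2 fell (median -0.01), Cd59a, which restrains complement, by 0.31 and Lynx1 by 0.37.

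Acute phase and gp130 pathway genes had 8 of 19 higher and 1 lower (median 0.32). Osmr, the oncostatin M receptor, rose by 0.90 (adjusted p = 0.00018), Lbp, a lipopolysaccharide-binding protein, by 0.65, and Il6 by 0.68 at a very dim level (3.65 ± 0.32 in infarcted hearts, 2.98 ± 0.17 in sham hearts, SD, n = 6 each). Lifr, the receptor of leukaemia inhibitory factor, fell by 0.44. The change of Il6 was 0.36 with the mean over probesets, and that of Lbp 0.42 without infarcted replicates 4, 5 and 6 (adjusted p = 0.0479). Without infarcted replicates 4, 5 and 6 the list counted 4 higher and 2 lower.

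Among 54 other serpins 8 rose and 1 fell (median 0.03), and 36 were below the 30th percentile of signal in both groups. Serpinb1a, an intracellular inhibitor of neutrophil proteases, rose by 1.6, at 7.12 ± 0.43 in infarcted hearts and 5.53 ± 0.38 in sham hearts (SD, n = 6 each, adjusted p = 7.32e-05). Serping1, the inhibitor of complement C1, rose by 0.71. Serpina12, a secreted serpin of fat tissue, fell by 0.45 at a dim level (adjusted p = 0.0131). Leaving out dim probesets gave a difference of 0.018 (adjusted p = 0.934), and with the replicate number as a block its adjusted p was 0.0528. With the mean over probesets Serpina12 fell by 0.29, and its call ended without infarcted replicates 4 and 5 (adjusted p = 0.0783). Without infarcted replicates 4, 5 and 6 the serpins outside the members counted 5 higher and none lower.

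The genes most like each member were those with the smallest root mean square difference over the 12 arrays, after each gene was centred on its own sham mean. For Serpina3n they were Col8a1 (difference 0.244), a short-chain collagen, and Cthrc1 (0.251), a secreted protein of activated fibroblasts. For Serpinf1 they were the fibrillar collagen gene Col5a2 (0.111) and Svep1 (0.134), which encodes a large matrix protein. For Serpine2 they were Cd53 (0.109), a tetraspanin of leukocytes, and the glypican gene Gpc6 (0.120). For Plat they were Ikbip (0.0982) and the annexin gene Anxa5 (0.102). For Plau they were Mindy4 (0.113) and the sulfotransferase gene Chst15 (0.116), and for Plaur the prolyl hydroxylase gene P4ha1 (0.126) and 1700123O20Rik (0.128). The measure holds the difference between groups as well as the spread within them.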

How the data were processed

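The deposited table holds 241576 probesets for 12 arrays. Its values were read as log2 from their range (1.52 to 14.37), since the authors' log base is not stated. Per the submitters' processing notes, Affymetrix Power Tools was used, with no version. Neither the summary method nor the normalization is stated. The log2 values deposited by the authors have nearly equal array medians, so a change of all genes in one direction may not be seen. The platform annotation gave 1 gene symbol to 212097 probesets, and symbols were updated through RefSeq synonyms, which left 20352 genes. The 6 members had 4 to 14 probesets each, none shared with another symbol.

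Infarcted and sham gene values were tested by limma 3.58.1 under R 4.3.3, with lmFit, eBayes, two-sided p-values and Benjamini-Hochberg adjustment over all genes, and probesets likewise over all probesets. No dim genes were removed in this comparison. Fold changes include background and understate changes of dim genes. The labels name biological replicates but no batch. Named genes followed a rule: all members, up to 3 called genes per list with the smallest p and the first in the other direction, Plg, Lrp1 and Mrc2, set markers such as Pdgfra, Postn, Csf1r and Myh11, and 2 most like genes per member. Genes added after their values were seen were the Serpina3 relatives, Nppa, Tbx18, Gfra3, Cd163, Fcgr1, Fap and Rgs5. The integrin genes other than Itga5, and Plgrkt, Igf2r, Lrpap1, Vtn and Lrp2, were added likewise. The members, lists and rule were chosen with earlier results of these data known. Alternatives were the mean over probesets, leaving out dim probesets (under the 30th percentile, 5.58) or dim genes, median centring, quantile normalization, eBayes with trend and robust, the replicate number as a block, and leaving out each array. Leaving out infarcted replicates 4 and 5, or 4, 5 and 6, and the probeset fit relative to the gene median were added after the data were seen. Scripts were tested on simulated data. Figures were drawn with matplotlib 3.10.9.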

Additional observations from a re-analysis of the deposited data

Results flagged for a closer look

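In 108 groups of 6 arrays (members, other named genes and marker lists), 7 had an array far from the others by Dixon's criterion, and chance flags about 1 in 20 groups. None of them was a group of the 6 members. Infarcted replicate 5 stood apart in adipocyte markers, at 7.16 with the next array at 5.63, and in epicardial and mesothelial markers, at 7.16 with the next at 6.43. Infarcted replicate 4 stood apart in neutrophil markers, at 5.24 with the next at 4.86. Sham replicate 1 was low in activated fibroblast markers, at 7.13 with the next at 7.33, and in Gpc6, at 8.38 with the next at 8.58. Infarcted replicate 3 was low in Lifr, at 8.50 with the next at 8.84, and infarcted replicate 2 was high in P4ha1, at 9.51 with the next at 9.22.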

How the results depend on the processing

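Plat, Serpine2, Serpinf1 and Serpina3n stayed higher and past the threshold in all 21 alternatives run, with log2 changes from 0.52 to 0.63, 0.98 to 1.13, 1.18 to 1.70 and 2.25 to 2.54. Plau stayed short of it in all 21 (0.13 to 0.27, adjusted p from 0.0588 to 0.396). Plaur passed in 1, with dim probesets left out (0.27). The difference of Plau and Plat ran from -0.45 to -0.29 with an array left out, and its call ended without infarcted replicate 2; the cause was not tested. Without infarcted replicates 4, 5 and 6, 1261 genes were higher and 899 lower, in a fit with fewer arrays. Among the 37 other named genes, 6 changed call or sign. Plg, not called in any, ran from -0.22 to 0.037 with an array left out, and was 0.037 without infarcted replicate 2, 0.010 without infarcted replicates 4 and 5, and 0.011 without 4, 5 and 6. Serpina12 turned to 0.018 with dim probesets left out. Serpina12 also missed the threshold without infarcted replicates 4 and 5 (adjusted p = 0.0783) and without 4, 5 and 6 (adjusted p = 0.2), as did Serpina3i (adjusted p = 0.0781 and 0.234). Lynx1 missed it without 4, 5 and 6 (adjusted p = 0.0598) and passed without 4 and 5. Chst15 and P4ha1 passed with the mean over probesets, and Chst15 also without sham replicate 5. Higher counts ran from 0 to 2 for plasminogen and its inhibitors (1 above), 9 to 11 for receptors and 6 to 9 for other serine proteases. They ran from 0 to 1 for Ly6 and uPAR proteins, 1 to 5 for clotting (3 above) and 4 to 9 for acute phase genes (8 above). For other serpins they ran from 5 to 10 (8 above), and for other Serpina3 genes from 1 to 4 (2 above). Lower counts of other serpins ran from 0 to 3, against 1. With the replicate block 3802 genes were called, against 4124, and the 6 members kept their side of the threshold; Plau minus Plat then gave p = 0.0312, exact permutation over sign changes of 6 pairs. Same-numbered arrays correlated between -0.0514 and 0.101 in their deviations from group means over 20352 genes, and 2 of 6 matched best with their own number, so the numbers were not taken as pairs. Signal near background limits what Plg, Hgf and the 36 dim of 54 other serpins can show.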
